A study of Rattus norvegicus with 8 samples.

Results

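The glutathione S-transferase family was examined here as 10 genes, Gsta2, Gsta3, Gsta4, Gstm1, Gstm2, Gstm4, Gstp1, Gstt1, Gstk1 and Mgst1, in rat liver after dietary exposure to a perfluorinated compound. Members were taken as every probe whose accession maps by RefSeq to one of these symbols, whatever its value, which gave 12 probes of 30367 on the array, where 15154 gene symbols could be matched. Gsta3 and Gstm4 had 2 probes each and the other 8 genes had 1.

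Adult male Sprague-Dawley rats ate either a control diet or a diet with potassium perfluorooctanesulfonate (PFOS, a persistent perfluorinated surfactant) at 50 mg per kg of diet for 28 days. Total RNA of frozen whole liver from 4 control and 4 PFOS rats, 1 array each, was labelled with Cy5. Each array also held a commercial pool, Universal rat reference RNA, in Cy3, and no dye was swapped. The value given per array is the log2 ratio of Cy5 to Cy3, the liver level against the reference level on the same spot. It compares arrays for 1 probe and does not compare the level of one probe with that of another. The animals are named separately in the labels, so the tests measure the spread between rats.

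Glutathione S-transferases join the tripeptide glutathione to electrophilic compounds, which makes them more soluble and marks them for export. The cytosolic enzymes form dimers and fall into classes, of which alpha and mu are abundant in rat hepatocytes and pi is normally low there, while Mgst1 belongs to a separate family of membrane proteins. Several class members are known targets of the antioxidant-responsive transcription factor encoded by Nfe2l2 and of nuclear receptors such as the one encoded by Nr1i3, and PFOS is known as an activator of nuclear receptors in rodent liver.

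The 8 arrays lay on 1 slide. The median Cy5 intensity was 116 to 160 over a background of 71 to 75, and 50.4% to 59.1% of probes were well above background in Cy5, with no saturated spot. Over all tested probes, arrays correlated at 0.98 to 0.983 within control, 0.972 to 0.981 within PFOS and 0.958 to 0.974 between the groups. All 8 hepatocyte markers were tested and lay on average at log2 ratios of 3.87 to 9.28. No marker on any of the 9 cell type lists was called. The summed normalized Cy5 intensity of the hepatocyte markers was 1370370 to 1464950 in control and 1288020 to 1374990 in PFOS, and that of the 4 tested bile duct markers was 935 to 1167 in control and 1157 to 1389 in PFOS. For sinusoidal endothelium it was 6574 to 12113 in control and 4931 to 7135 in PFOS. Periportal hepatocyte markers gave 60995 to 78529 in control and 53587 to 61918 in PFOS. Pericentral hepatocyte markers gave 33200 to 51833 in control and 39956 to 57941 in PFOS. The part of such shifts in the results was not tested, and in whole liver fewer cells of a type and less RNA per cell cannot be told apart.

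All 12 member probes were well above background on all 8 arrays, so each passed the filter for dim probes, and none had an outlier spot. Their adjusted p still depended on which other probes that filter kept. In the limma fit over 16952 probes, 1 of the 12 was called (adjusted p under 0.05), a Gsta3 probe that was higher in PFOS. Over all tested probes 3.74% were called and 1.74% were called higher. Before adjustment, 6 of the 12 had p under 0.05, against 19.5% of all tested probes. The change was above 0 for 10 of the 12, against 47.5% of all tested probes. The median change of the 12 was 0.28 log2 units, beside -0.012 over all tested probes, and became 0.46 when arrays were also scaled to a common spread. PFOS and control values did not overlap for 4 of the 12, in each with PFOS higher, which 5.81% of all tested probes also showed. Counting only the brightest probe of each gene, 0 of 10 genes were called in the ratio by limma, and 4 had an unadjusted p under 0.05.

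**Figure D1:**
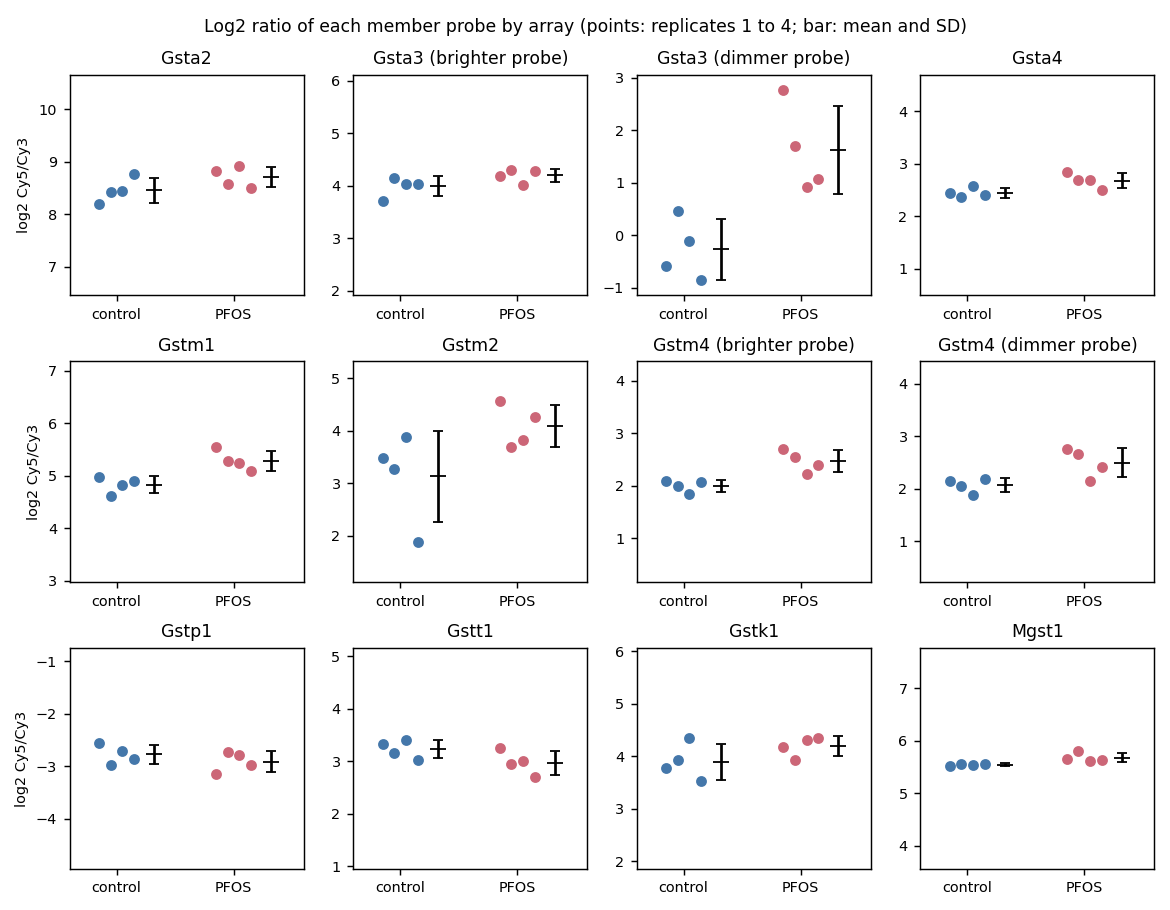
Log2 Cy5/Cy3 ratio (vertical axis) of each of the 12 member probes on the 4 control and 4 PFOS arrays, with the mean and SD beside the points. Each panel has its own level but all span the same number of log2 units, so spreads can be compared. The dimmer Gsta3 probe shows the widest gap between groups, and the control point of Gstm2 at 1.88 stands below the rest.

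Among the alpha class, Gsta3 gave the call, through 1 of its 2 probes. Gsta3 encodes an alpha subunit that RefSeq also lists under the older names Gsta5 and Yc2. On its dimmer probe (A_64_P035291) the log2 ratios were -0.59, 0.46, -0.10 and -0.85 in control 1 to 4 and 2.77, 1.71, 0.93 and 1.08 in PFOS 1 to 4. Every PFOS array lay above every control array, with PFOS 1 the highest. The means were -0.27 ± 0.58 (SD, n = 4) and 1.62 ± 0.84 (SD, n = 4), a change of 1.89 (SE 0.41, 95% interval 0.96 to 2.82) or 3.71-fold, with a limma adjusted p of 0.0408.

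The signal behind that Gsta3 probe was low. Its unnormalized Cy5 intensity was 107 to 324 in control and 265 to 1829 in PFOS, over the background of 71 to 75, while Cy3 was 647 to 779 on all arrays. In unnormalized Cy5 the groups overlapped, through control 2 and PFOS 3 and 4. In the normalized Cy5 channel alone the probe was 1.83 higher (SE 0.40, adjusted p = 0.0335), and in Cy3 alone it differed by -0.0034.

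The Gsta3 call lay near the threshold and came and went with the settings and with single arrays left out. Leaving out 1 array also cut the 634 calls over all tested probes, to between 369 and 551. The Gsta3 call was lost without control 1 (change 1.78, limma adjusted p = 0.109), control 3 (1.95, 0.0834), control 4 (1.70, 0.0945), PFOS 1 (1.51, 0.0521) or PFOS 2 (1.86, 0.0930). It was also lost with the scanner software's processed signals (2.35, 0.0682), with no filter on dim probes (0.0522), with a trended robust fit (0.0568) and with the slide column as a block (0.0793). The change was above 0 in all 22 planned settings it could be fitted in, from 1.51 to 2.35, and called in 13 of them. Within the slide's rows, each with 2 arrays per group, it was 2.31 and 1.48.

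The brighter Gsta3 probe (A_64_P004231) read 3.72, 4.16, 4.04 and 4.04 in control and 4.19, 4.31, 4.02 and 4.28 in PFOS. These values overlapped, and the change was 0.21 (SE 0.11, 95% interval -0.043 to 0.46, limma adjusted p = 0.338). It was 0.12 without control 1 and 0.34 with scaling between arrays. The difference between the 2 probes, dimmer minus brighter, was -4.26 ± 0.49 (SD, n = 4) in control and -2.58 ± 0.82 (SD, n = 4) in PFOS. The gap was thus 1.68 smaller in PFOS, on average, which is given as a description because the comparison was chosen with the probe values known. Both probes carry the same transcript accession.

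**Figure D2:**
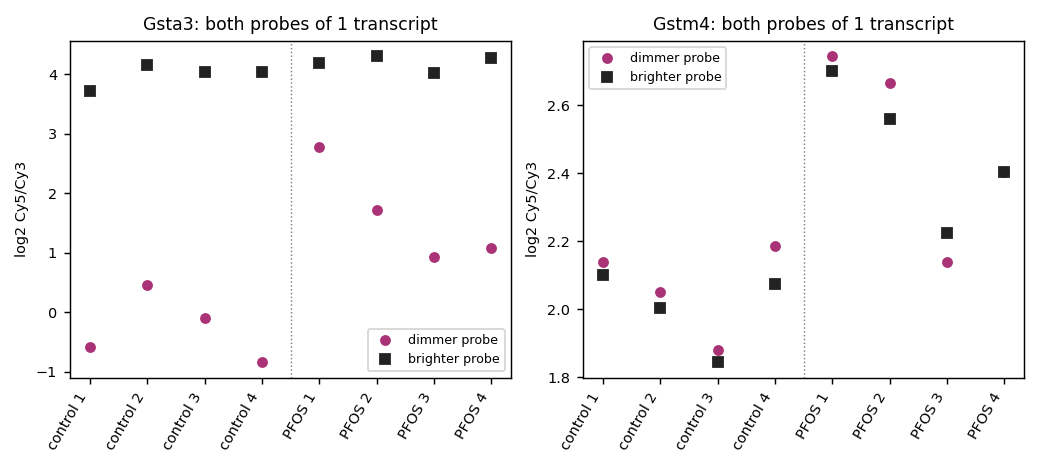
Log2 Cy5/Cy3 ratio (vertical axis) of both probes of Gsta3 (left) and Gstm4 (right) on each array (horizontal axis, control 1 to 4 and PFOS 1 to 4). The Gsta3 probes lie far apart in control and nearer in PFOS on average, where the gap was 1.68 smaller, while the Gstm4 probes nearly coincide, on PFOS 4 so closely that the points overlap.

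Gsta2, an abundant alpha subunit of rat liver, read 8.19, 8.41, 8.44 and 8.76 in control and 8.82, 8.57, 8.92 and 8.51 in PFOS. Control 4 lay above PFOS 2 and PFOS 4, so the groups overlapped. The change was 0.25 (SE 0.14, 95% interval -0.058 to 0.57, adjusted p = 0.348), which became 0.17 without control 1 and 0.52 with scaling between arrays. Gsta4, known for conjugating 4-hydroxynonenal from oxidised lipids, read 2.43, 2.36, 2.57 and 2.41 in control and 2.84, 2.68, 2.68 and 2.50 in PFOS. Only control 3 lay above any PFOS array, namely PFOS 4. The Gsta4 change was 0.23 (SE 0.092, 95% interval 0.026 to 0.44) and missed the threshold at an adjusted p of 0.207.

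The promoters of Gsta3, Gstm7 and Gstp1 are shown because they hold the core of the antioxidant response element and cover the called genes, a member and a non-member, and a member that was not called. Each line gives the 250 bases before a RefSeq transcription start on GRCr8, 5′ to 3′ along the gene's strand, with the core match TGACNNNGC in capitals. The Gsta3 line is the first of its 2 listed starts, and the second held no such core. Which start the transcript of the Gsta3 probes uses was not examined.
Gsta3, chr9:31154739-31154988, plus strand: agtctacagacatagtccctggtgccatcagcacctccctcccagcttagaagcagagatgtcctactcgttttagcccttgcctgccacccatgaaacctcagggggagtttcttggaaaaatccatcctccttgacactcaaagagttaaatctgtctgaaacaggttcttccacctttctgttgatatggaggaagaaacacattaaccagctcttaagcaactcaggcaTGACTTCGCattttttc
Gstm7, chr2:198260320-198260569, minus strand: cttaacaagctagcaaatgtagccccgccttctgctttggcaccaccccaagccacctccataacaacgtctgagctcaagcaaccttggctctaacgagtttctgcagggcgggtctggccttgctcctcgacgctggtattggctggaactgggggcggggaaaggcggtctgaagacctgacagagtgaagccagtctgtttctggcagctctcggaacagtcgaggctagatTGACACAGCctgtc
Gstp1, chr1:210769706-210769955, minus strand: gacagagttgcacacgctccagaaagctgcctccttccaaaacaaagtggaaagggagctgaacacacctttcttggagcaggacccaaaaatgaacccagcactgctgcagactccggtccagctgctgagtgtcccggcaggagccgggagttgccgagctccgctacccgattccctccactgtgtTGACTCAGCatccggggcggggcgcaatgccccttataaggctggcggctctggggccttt

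RefSeq listed such a promoter for 9 of the 10 members, 10 promoters in all. Gstt1 was not among them. The core TGACNNNGC, searched on both strands, was found in 2 of these 10, those of the first Gsta3 start and of Gstp1. Of all 33469 promoters of the same length, 10.1% held it. It began 17 bases before the start in Gsta3, as TGACTTCGC, 61 bases before it in Gstp1, as TGACTCAGC, and 14 bases before it in Gstm7, as TGACACAGC. In Gstp1 the match overlaps the AP-1 site TGACTCA, which 4.05% of promoters hold. Among the other glutathione transferases it was found in 4 of 17 promoters, those of Gstm5, Gstm7, Gstz1 and Gstcd. Of these, Gstm5 and Gstz1 were tested and not called.

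The xenobiotic response core GCGTG was found in 5 of the 10 member promoters, those of Gsta2, Gsta4, Gstm4, Gstp1 and the second start of Gsta3, and in 25.9% of all promoters. The spaced repeats AGGTCANAGGTCA and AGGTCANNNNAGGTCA were in no member promoter, and were in 0.0508% and 0.00299% of all promoters. The first Gsta3 promoter and that of Gsta1, which RefSeq lists under the older name Gsta3, aligned with 54.6% identity and shared a run of 20 bases. The 8 other pairs compared among alpha and mu genes had 46.6% to 52% identity and runs of 7 to 10 bases. These matches describe letters in this window of 250 bases and were not measured as binding sites. Bases further upstream were not searched, so an absent match speaks only of this window.

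In the mu class, which lies as a run of neighbouring genes on chromosome 2 of GRCr8, all 4 member probes were higher on average in PFOS but none passed the test in the ratio. Gstm4 came nearest. Its brighter probe read 2.102, 2.01, 1.84 and 2.07 in control and 2.70, 2.56, 2.22 and 2.40 in PFOS. The groups did not overlap, and the change was 0.47 (SE 0.11, 95% interval 0.21 to 0.72, adjusted p = 0.0599).

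In the Cy5 channel alone that Gstm4 probe was called, at 0.51 higher (SE 0.11, limma adjusted p = 0.0301). Its ratio was called in 4 of 23 planned settings, namely the authors' deposited table (0.53, 0.0383), scaling between arrays (0.53, 0.0218), the slide row as a block (0.0389) and without PFOS 3 (0.55, 0.0408). The dimmer Gstm4 probe read 2.14, 2.05, 1.88 and 2.19 in control and 2.75, 2.67, 2.14 and 2.41 in PFOS, a change of 0.42 (SE 0.14, adjusted p = 0.136), with PFOS 3 inside the control range. The 2 Gstm4 probes differed by 0.058 in control and 0.017 in PFOS, a shift of -0.041.

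Gstm1, a major mu subunit of rat liver, read 4.98, 4.61, 4.82 and 4.90 in control and 5.55, 5.27, 5.24 and 5.09 in PFOS. Again no control array reached the lowest PFOS array. The change was 0.46 (SE 0.12, 95% interval 0.19 to 0.73, limma adjusted p = 0.0724), and in Cy5 alone it was 0.42 (adjusted p = 0.0879). Gstm2, another mu subunit, read 3.48, 3.27, 3.89 and 1.88 in control and 4.56, 3.69, 3.83 and 4.27 in PFOS. Its control values spread widely, since control 4 lay far below the others and control 3 lay above 2 PFOS arrays. The change was 0.96 (SE 0.39, 95% interval 0.077 to 1.83, adjusted p = 0.220) and 0.54 without control 4.

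Gstp1 and Gstt1 were the members with a negative change, and neither passed the test. Gstp1, the pi-class enzyme known as a marker of altered foci in rat liver, read -2.56, -2.98, -2.71 and -2.85 in control and -3.15, -2.73, -2.78 and -2.98 in PFOS. Its ratio was below 0 on every array, so the reference RNA gave the brighter signal, at 33886 to 35908 unnormalized Cy3 units against 1047 to 2108 in Cy5. The change was -0.14 (SE 0.12, 95% interval -0.42 to 0.14, adjusted p = 0.585). It was -0.064 without control 1, -0.057 without PFOS 1 and -0.22 with scaling between arrays.

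Gstt1, a theta-class enzyme that acts on small halogenated compounds, read 3.33, 3.15, 3.41 and 3.03 in control and 3.25, 2.94, 3.01 and 2.69 in PFOS. PFOS 4 was the lowest, but PFOS 1 lay above control 2 and 4. The change was -0.26 (SE 0.13, 95% interval -0.56 to 0.040, adjusted p = 0.321), and it was -0.16 without PFOS 4 and -0.17 with scaling between arrays.

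Gstk1, the kappa-class enzyme of mitochondria and peroxisomes, read 3.79, 3.93, 4.35 and 3.54 in control and 4.19, 3.93, 4.32 and 4.35 in PFOS. Control 3 lay within the PFOS range, and the change was 0.30 (SE 0.17, 95% interval -0.084 to 0.68, adjusted p = 0.369), with 0.45 without control 3 and 0.17 without control 4. Mgst1, the membrane-bound enzyme of the endoplasmic reticulum, read 5.52, 5.56, 5.53 and 5.56 in control and 5.65, 5.80, 5.62 and 5.62 in PFOS. The control arrays were close together and all lay below PFOS. The Mgst1 change of 0.13 (SE 0.073, 95% interval -0.034 to 0.30) had an adjusted p of 0.359 and became 0.31 with scaling between arrays. In Cy5 alone it was 0.017 and the groups overlapped.

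In Cy5 alone, which holds the liver RNA, 10 of the 12 member probes had a change above 0, against 49% of all tested probes. In that channel 2 of the 12 member probes were called, both higher in PFOS (the dimmer Gsta3 probe and the brighter Gstm4 probe), against 4.7% of all tested probes called in either direction and 2.37% called higher. The groups did not overlap for 3 of the 12 in Cy5, against 13% of all tested probes, and the median change was 0.22. In Cy3, which holds the same reference RNA on every array, 0 of the 12 were called by limma and 0 had an unadjusted p under 0.05, against 0.0767% and 3.85% of all tested probes. The Cy3 changes of the members ran from -0.038 to 0.032.

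**Figure D3:**
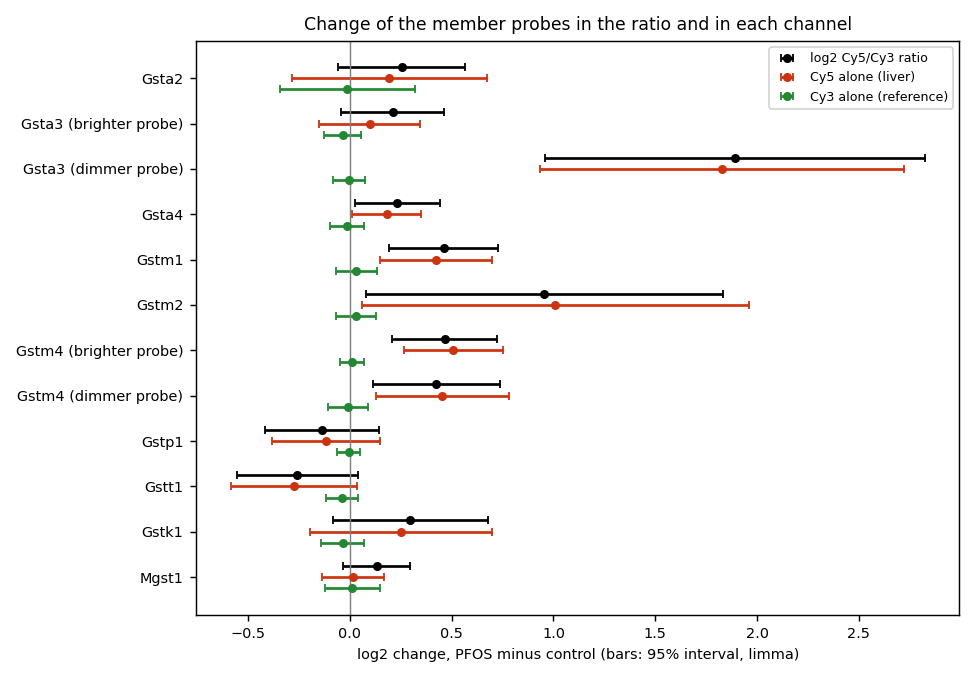
Log2 change, PFOS minus control (horizontal axis), of each member probe in the ratio, in Cy5 alone and in Cy3 alone, with the 95% interval from limma. The ratio and Cy5 points of each probe lie on the same side of 0, while all Cy3 points lie between -0.038 and 0.032. The Cy5 change was well below the ratio change for Mgst1 (0.017 and 0.13) and the brighter Gsta3 probe (0.098 and 0.21).

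In the ratio, 10 of the 12 probes were above 0 in each planned setting that held all 12, and the same 10 were above 0 within each slide row, with a median change of 0.38 in row 1 and 0.18 in row 2. The ratio call of the dimmer Gsta3 probe and that of the brighter Gstm4 probe came and went, and no other member probe was called in the ratio in any planned setting.

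**Figure D4:**
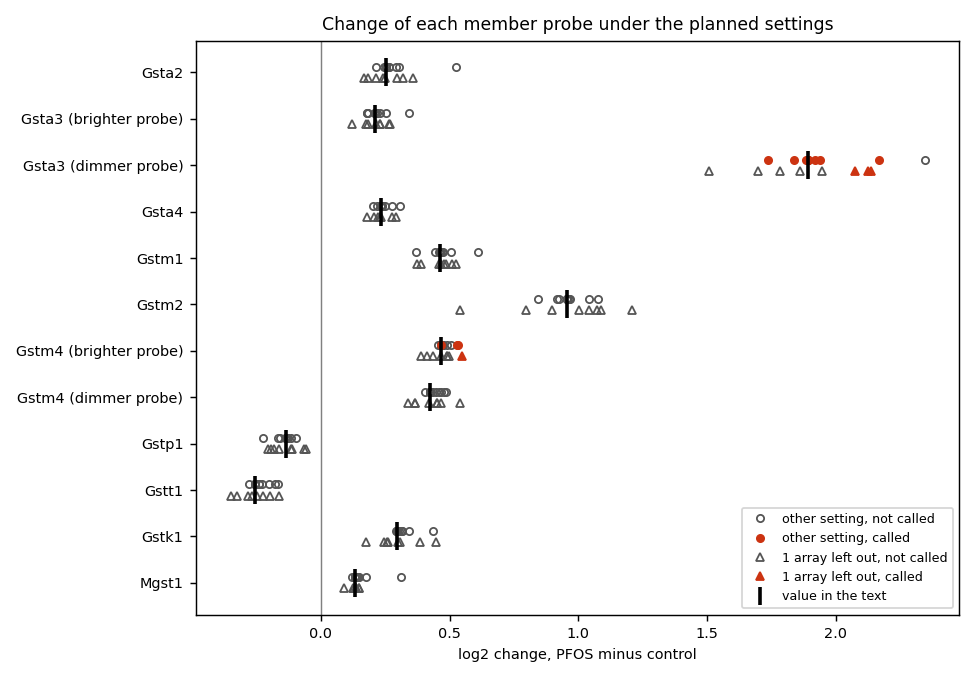
Log2 change, PFOS minus control (horizontal axis), of each member probe as given in the text (vertical bar), under other processing settings (circles) and with 1 array left out (triangles), where filled symbols were called. Filled symbols appear for the dimmer Gsta3 probe, from 1.51 to 2.35 over all its settings, and for the brighter Gstm4 probe, and Gstp1 and Gstt1 stay below 0.

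Of 20 other glutathione transferase genes listed, 17 had a probe and 13 were tested, each with 1 probe. Gstm6, Gsto2, Gstt4 and Ptges did not pass the filter, and no probe was matched to Gstt3, Gstcd or Gstp2. Of the 13, 1 was called higher and 0 lower in the ratio by limma, against 3.74% called over all tested probes. Before adjustment 5 had p under 0.05, against 19.5% of all tested probes. The change was above 0 for 10 of the 13, against 47.5% of all tested probes, with a median of 0.19.

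The called gene was Gstm7, a mu-class gene in the same run on chromosome 2, whose promoter is printed above. It read 4.64, 4.35, 4.59 and 4.15 in control and 5.30, 4.76, 5.04 and 5.30 in PFOS, with no overlap. Its ratio rose by 0.67 (SE 0.15, adjusted p = 0.0450 by limma). In Cy5 alone it rose by 1.01 (adjusted p = 0.0182). The reference channel, which holds the same RNA on every array, differed by 0.28 (limma unadjusted p = 0.0070, adjusted p = 0.927). Of the 13 tested probes, 2 had an unadjusted p under 0.05 in Cy3, Gstm7 and Gstm3, against 3.85% of all tested probes. The ratio call was lost in 14 of 23 planned settings, among them leaving out any of control 1 to 4 or PFOS 1, 3 or 4, with changes of 0.58 to 0.83 over all of them.

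Gsta5, an alpha-class gene beside Gsta4 and Gsta2 on chromosome 8, read 6.74, 7.001, 7.32 and 7.43 in control and 7.97, 7.74, 7.91 and 7.56 in PFOS. Control and PFOS did not overlap, and the change was 0.68 (SE 0.16, adjusted p = 0.0527), with Cy5 alone called at 0.62 (adjusted p = 0.0296). Its ratio was called in 3 of 23 planned settings, among them without control 4 (0.78, 0.0429) and without PFOS 4 (0.75, 0.0498). Mgst2, a microsomal enzyme, differed by 0.28 (SE 0.087) with an adjusted p of 0.121. Gstm3, chosen for mention after its values were seen, had the largest change of the 13, 1.89 (SE 0.62), with an adjusted p of 0.136. It read 4.09, 1.83, 3.66 and 2.07 in control and 6.27, 4.10, 4.07 and 4.77 in PFOS, so control 2 and 4 were low and control 1 reached into the PFOS range. Its reference signal was the lowest of the 13, with a mean normalized log2 Cy3 of 6.21 in control and 6.40 in PFOS. In Cy5 alone Gstm3 differed by 1.68 (limma adjusted p = 0.0623), and there the groups did not overlap.

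**Figure D5:**
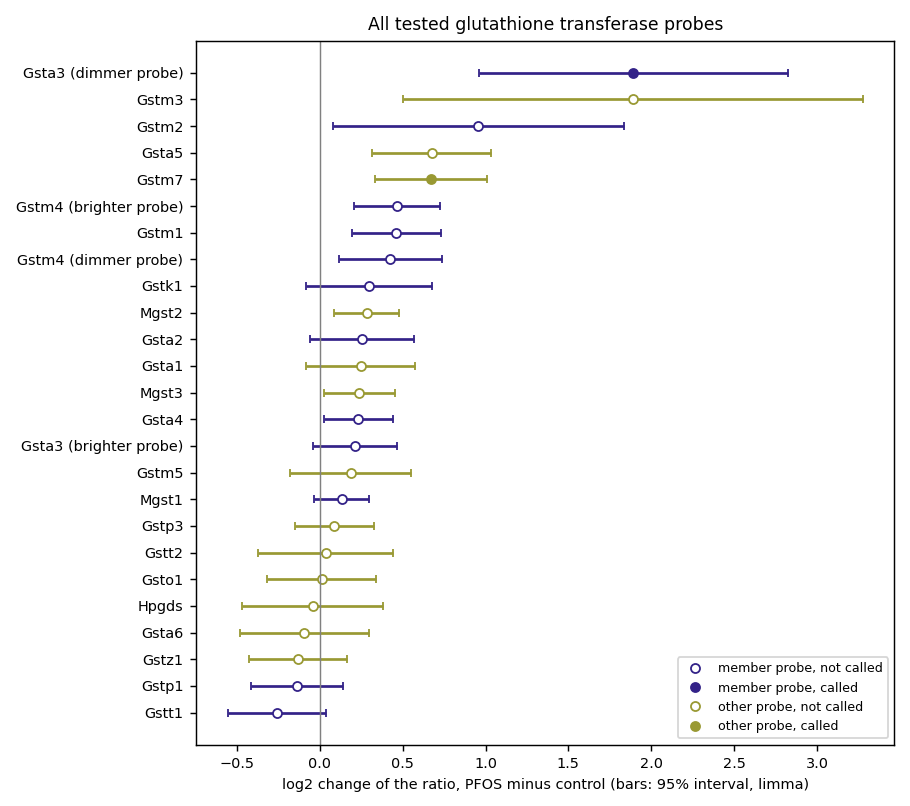
Log2 change of the ratio, PFOS minus control (horizontal axis), with 95% intervals from limma, of the 25 tested glutathione transferase probes, members and others, sorted by size. Filled points were called: the dimmer Gsta3 probe at 1.89 and Gstm7 at 0.67. Of the 25 probes, 20 lie above 0.

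Genes that supply, use and recycle glutathione were read from 34 tested probes of 28 genes, of 33 listed. By limma, 3 probes of 2 genes were called, all higher in PFOS, against 3.74% of all tested probes called and 1.74% called higher. The change was above 0 for 18 of the 34, against 47.5% of all tested probes, with a median of 0.028. Gpx2, a glutathione peroxidase, rose by 1.30 (SE 0.14, adjusted p = 0.00170) and 0.63 (SE 0.10, adjusted p = 0.0101) on its 2 probes. Slc3a2, the heavy chain that carries amino acid transporters to the membrane, rose by 0.65 (SE 0.11, adjusted p = 0.0156), a call lost without control 1 (0.61, 0.0511) and with the slide column as a block (0.0546). The smaller Gpx2 change was not called with median centring (0.70, 0.0892), scaling between arrays (0.55, 0.107) or the slide column as a block (0.0741). Gpx2 is best known from gut epithelium, and the part of the epithelial bile duct signal, whose ranges are given above, in the Gpx2 values was not tested.

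Genes of conjugate export and of the mercapturate pathway, which trims and acetylates glutathione conjugates, were read from 23 tested probes of 20 genes, of 25 listed. Abcc3, Ggt6, Ggt7 and Dpep3 did not pass the filter, and no probe was matched to Ccbl1. Abcc3 was well above background on 2 PFOS and 0 control arrays, so its change was not tested. Of the 23 tested probes 1 was called, lower in PFOS, a share near the 3.74% called over all tested probes (2% lower). The change was above 0 for 10 of the 23, with a median of -0.0039. In Cy5 alone 2 were called, Nat8b and Acy1, both lower, against 4.7% of all tested probes called in that channel in either direction. Nat8b, an N-acetyltransferase relative of the mercapturate enzyme, fell by 0.74 (SE 0.11, limma adjusted p = 0.00869). Acy1, an aminoacylase, differed by -0.27 in the ratio (SE 0.071, adjusted p = 0.0781) and fell by 0.27 in Cy5 alone (adjusted p = 0.0422), with no overlap between the groups in either. Acy3, a relative that removes the acetyl group from mercapturates, differed by 0.85 (SE 0.30, adjusted p = 0.168).

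Of 10 probes for 9 regulators, 0 were called in the ratio by limma, against 3.74% of all tested probes. Before adjustment 4 had p under 0.05, against 19.5% of all tested probes. Nfe2l2, the antioxidant response factor, differed by -0.14 (SE 0.14, adjusted p = 0.601) and its inhibitor Keap1 by 0.024 (SE 0.10, adjusted p = 0.923). Both probes of Nr1i3, the constitutive androstane receptor, had large changes with wide errors, 1.68 (SE 0.59, adjusted p = 0.164) and 1.40 (SE 0.46, adjusted p = 0.136). The first read 3.95, 2.17, 4.18 and 1.64 in control and 5.39, 4.49, 5.04 and 3.75 in PFOS, so that control 2 and 4 were low, as they were for Gstm3.

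Of the other regulators, Nr1i2, the pregnane X receptor, differed by -0.065 (SE 0.084, adjusted p = 0.720) and Ppara, the peroxisome proliferator receptor, by -0.50 (SE 0.44, adjusted p = 0.566). Ahr, the aryl hydrocarbon receptor, differed by 0.64 (SE 0.29, adjusted p = 0.266). Among liver factors, Hnf4a differed by 0.12 (SE 0.29, adjusted p = 0.852) and Cebpb by 0.86 (SE 0.22, adjusted p = 0.0734). Cebpb was called in 3 of 23 planned settings, among them without PFOS 1 (1.05, adjusted p = 0.0332).

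Over the 8 arrays, the genes with the ratio most like that of the dimmer Gsta3 probe were Bet1 (Pearson r 0.978), Ebna1bp2 (0.971), Cd36 (0.970), Smcr8 (0.965) and Myo5b (0.965). These points share the split into 4 control and 4 PFOS arrays, and the values describe likeness only. Of the 5, Ebna1bp2 was called, at 0.41 higher in PFOS (limma adjusted p = 0.0461), and Cd36, the fatty acid transporter, differed by 1.55 with an adjusted p of 0.0529.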

How the data were processed

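Scanner files of 8 two-colour arrays hold red and green spot intensities, deposited unnormalized; per the submitters' processing notes they come from Agilent Feature Extraction 10.7.3.1. Its well-above-background and outlier flags are used as given. The file headers name a scan resolution of 3 µm, which differs from the submitters' design text. The authors' deposited table holds log2 values whose exact normalization and centring are unknown (array medians -0.061 to -0.048). Those values correlated at 0.995 to 0.997 with loess ratios made without background subtraction, so they run as Cy5 over Cy3, and they serve as an alternative.

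Here intensities were corrected with normexp (offset 50) and loess within arrays in limma 3.58.1 (R 4.3.3), control spots at weight 0, spots of a probe averaged and outlier spots left out. The 16952 probes whose Cy5 signal was flagged well above background on 4 or more of the 8 arrays entered lmFit and eBayes, with Benjamini-Hochberg adjustment over all of them. Single channels were normalized between arrays by quantiles. The code was tested on simulated data. Gene names came from RefSeq (GRCr8), which matched 17958 of 19159 probes with a curated accession; symbols of this family have been reassigned over time, and near-identical genes can bind one another's probes, whose sequences were not used here. Coordinates of probes are not given because the array's own build differs. Promoters were searched and aligned with Biopython 1.88.

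The members and lists were chosen with earlier results of these data known. Named are all members, in each other list the called genes and up to 3 with the smallest p, the regulators (1 of the 9 is not reported here by name) and the 5 genes most like the called member probe. Replicate numbers follow accession order and pair nothing. The number of arrays limits the precision, with a median SE of 0.11 log2 units.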

Additional observations from a re-analysis of the deposited data

How the results depend on the processing

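The count of 1 called member probe in the ratio became 0 with processed signals, with no filter on dim probes, with 1 probe per gene, with a trended robust fit and with the slide column as a block, and 2 with scaling between arrays, the authors' deposited table and the slide row as a block. Leaving out 1 array gave 0 to 2, and each slide row alone, an alternative chosen after seeing the data, gave 0. The 2 calls in Cy5 alone became 0 with processed signals and with the slide column as a block, 1 with 75th percentile scaling and 1 with no filter on dim probes, and 0 to 2 with 1 array left out. The 0 calls in Cy3 alone stayed at 0 with 1 array left out. The 1 call among other glutathione transferases became 0 with normexp offset 0, median centring, scaling, no dim filter, the trended robust fit, either slide block and either row alone. It became 2 when probes had to be well above background on all 8 arrays, and 0 to 1 with 1 array left out. Without control 4 and without PFOS 4, the called gene was Gsta5 in place of Gstm7. The 3 supply and recycling calls became 1 with the slide column as a block and 2 to 4 with 1 array left out. In row 1 alone none of the 3 was called and 1 other probe was called lower, and in row 2 alone 0 were called. The 1 export call became 0 in either row alone and was 1 to 2 with 1 array left out, 2 of them without PFOS 3. For regulators that were called in no setting, signs turned: Hnf4a was -0.082 without control 4, -0.070 without PFOS 1 and -0.18 in row 2 alone (-0.082 to 0.36 with 1 array left out), Keap1 was -0.029 without control 3, -0.037 without PFOS 1 and -0.023 in row 1 alone (-0.037 to 0.093 with 1 array left out), Nfe2l2 was 0.025 in row 1 alone, and Nr1i2 was 0.11 with scaling between arrays. The causes were not tested, beyond the fewer arrays of the left-out and single-row fits. Over all tested probes the 634 calls became 261 with median centring, 293 with the slide column as a block, 371 when a 1.5-fold change was required, 369 to 551 with 1 array left out (369 without control 1), and 108 and 36 in the rows alone. In the ratio, no planned setting and neither row alone moved a member probe across 0, while in Cy5 alone the 10 member probes above 0 became 9 without control 3 and 9 without PFOS 2. No paired analysis was possible because the labels give no replicate numbers shared by the groups. The dimmer Gsta3 probe, 107 to 324 over a background of 71 to 75 in control, is the member whose signal over background is most limited.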

Other observations

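Control 2 and 4 were low for Gstm3, which is not among the 10 members, and for both probes of the regulator Nr1i3. This pattern was noticed after the values were seen and was not tested. Other regulators did not share it, and Ahr was lower on control 3 and 4 (0.57 and 0.35) than on control 1 and 2 (1.14 and 1.22). Control 2 and 4 lay in slide columns 3 and 4, and control 1 and 3 in columns 1 and 2. Of the PFOS arrays, those in columns 3 and 4 were lower for both Nr1i3 probes. For Gstm3, PFOS 3 in column 1 was the lowest. The part of slide position was not tested. Gstm3 read 1.83 and 2.07 on control 2 and 4 and 4.09 and 3.66 on control 1 and 3. The Nr1i3 probes read 2.17 and 1.64, and 3.66 and 3.21, on control 2 and 4, against 3.95 and 4.18, and 4.87 and 5.32, on control 1 and 3. Gstm2 was lowest on control 4, at 1.88, but read 3.27 on control 2.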
